A study of Rattus norvegicus with 6 samples.

Results

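Protein phosphatase 2A (PP2A) is a serine/threonine phosphatase that reverses the action of many kinases. Its core is a scaffold subunit bound to a catalytic subunit, and a regulatory B-type subunit joins the core and decides where it acts and on what. In the Wnt pathway PP2A belongs to the complex that marks β-catenin for destruction, and B56-type subunits bind APC and axin there. In insulin signaling PP2A removes activating phosphates from Akt. All this control takes place on protein, while the arrays described here measured messenger RNA.

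The 10 PP2A genes described here encode the catalytic subunits (Ppp2ca, Ppp2cb), the scaffold subunits (Ppp2r1a, Ppp2r1b), 1 subunit of the B55 type (Ppp2r2a) and the 5 subunits of the B56 type (Ppp2r5a, Ppp2r5b, Ppp2r5c, Ppp2r5d, Ppp2r5e). Every probe set whose annotation lists 1 of these symbols alone was taken, which gave 21 of the 31042 probe sets tested. Each probe set pools several short oligonucleotides that read the same transcript. One further probe set lists Ppp2ca together with another symbol and was left out.

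COUP-TFII (gene Nr2f2) is a nuclear receptor of β-cells. The study depleted it in 832/13 INS-1 cells, a clone of a rat insulinoma line, to ask which genes depend on it there. Of 6 Affymetrix rat arrays, 3 carry RNA from COUP-TFII depleted cells, which received COUP-TFII siRNA by electroporation, and 3 carry RNA from control cells, which received a scrambled siRNA the same way. Both groups were between passages 7 and 25, were grown in medium with 11 mM glucose, and were harvested after 48 h. The arrays of each group are numbered 1, 2 and 3 as biological replicates, and all come from the same clonal tumour line, transfected with 1 siRNA for the depletion.

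The depletion showed in Nr2f2 itself. Its brighter probe set 1389554_at read 47, 27.7 and 23.8 in COUP-TFII depleted cells, against 182, 235 and 179 in control cells, a log2 fold change of -2.65. Even this difference had a limma adjusted p of 0.404 over all probe sets, and 0.0185 with the replicate number as a block. Signals are linear intensities, and 27 control probe sets for Bacillus transcripts, absent from rat cells, give a scale for background, with a maximum of 20.7. A probe set with a mean at or below it in both groups is called dim. The β-cell identity of the line was borne by 8 measured β-cell markers of 10 listed, none of them dim, with a summed signal of 43807 to 48272 in COUP-TFII depleted cells and 33113 to 45076 in control cells. Among markers of other cells, all 5 measured acinar and duct genes and 5 of 6 measured stromal, endothelial and leukocyte genes were dim. Their summed signals were 19.6 to 36.1 and 65.7 to 76.9 in COUP-TFII depleted cells, against 21.4 to 38.5 and 60.2 to 109 in control cells. Of the 4 other islet hormones Sst and Ghrl were dim and Ppy lay near the Bacillus level. Gcg, which encodes glucagon, was not: it read 8056, 4789 and 817 in COUP-TFII depleted cells and 6313, 3397 and 394 in control cells, differing more between replicate numbers than between groups. Within the same-numbered pairs Gcg was higher in COUP-TFII depleted cells by 0.35, 0.50 and 1.05 on the log2 scale, with a limma adjusted p of 1, and 0.566 with the block. Its part in the results below was not tested. In RNA from a whole culture, fewer cells of a type and less RNA per cell cannot be told apart. The arrays with replicate number 2 had the most signals at or below the Bacillus level, 42.2% in COUP-TFII depleted and 43.7% in control cells, against 36.2% to 39.1% on the other arrays. The ratio of 3′ to 5′ control signals for β-actin was 2.64 to 3.39 in COUP-TFII depleted cells, highest on replicate 2, and 2.88 to 3 in control cells. For GAPDH it was 1.04 to 1.07 and 0.974 to 1.09. The part of RNA integrity in the results below was not tested.

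No PP2A probe set passed the test between COUP-TFII depleted and control cells. After adjustment over all probe sets limma called 0 of the 21, and it called 0 of all 31042 (0%). With the block it called 0 of the 21, against 5 of all probe sets (0.0161%). At an unadjusted p up to 0.05 limma held 1 of the 21 (4.76%), a probe set of Ppp2r5d, against 717 of all (2.31%). With the block these counts were 3 of 21 (14.3%), from Ppp2r5d and Ppp2r5e, against 1933 of all (6.23%). The methods' t-test, which is unpaired, held 2 of 21 (9.52%) at that threshold, against 974 of all (3.14%). With counts this small, a difference of 1 or 2 probe sets separates these shares, and nothing is read from them about PP2A as a group.

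As a group the PP2A transcripts stayed near the middle of the array. The median log2 fold change of the 21 probe sets was -0.02, with a higher mean in COUP-TFII depleted cells for 9 and a lower one for 12, against -0.003 over all probe sets, with 15383 higher and 15651 lower. In the 3 same-numbered pairs of arrays the median over the PP2A probe sets was -0.13, 0.04 and 0.003. Of the 21 probe sets, 18 were not dim, and their log2 fold changes ran from -0.37 to 0.54 with a median of -0.05. The median pooled SD of their signals between replicates was 0.20 on the log2 scale, against 0.31 for all probe sets that were not dim. These sets were not matched for signal, and the part of brightness in the difference was not tested. By the brightest probe set of each gene, 3 genes had a higher and 7 a lower mean in COUP-TFII depleted cells, and 8 of the 10 lay within 10% of control cells. Over all probe sets that were not dim, 11 of the 18 lay within 10%, against 9515 of 19389 on the whole array. With the median taken across all probe sets of a gene 6 of the 10 genes were higher, but Ppp2ca and Ppp2r5a were among them only through a dim probe set. Across the probe sets that were not dim 4 of the 10 were higher. Ppp2r5d was among these only through the median of 2 opposed probe sets, at -0.37 and 0.54, and was lower by its brightest.

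**Figure D1:**
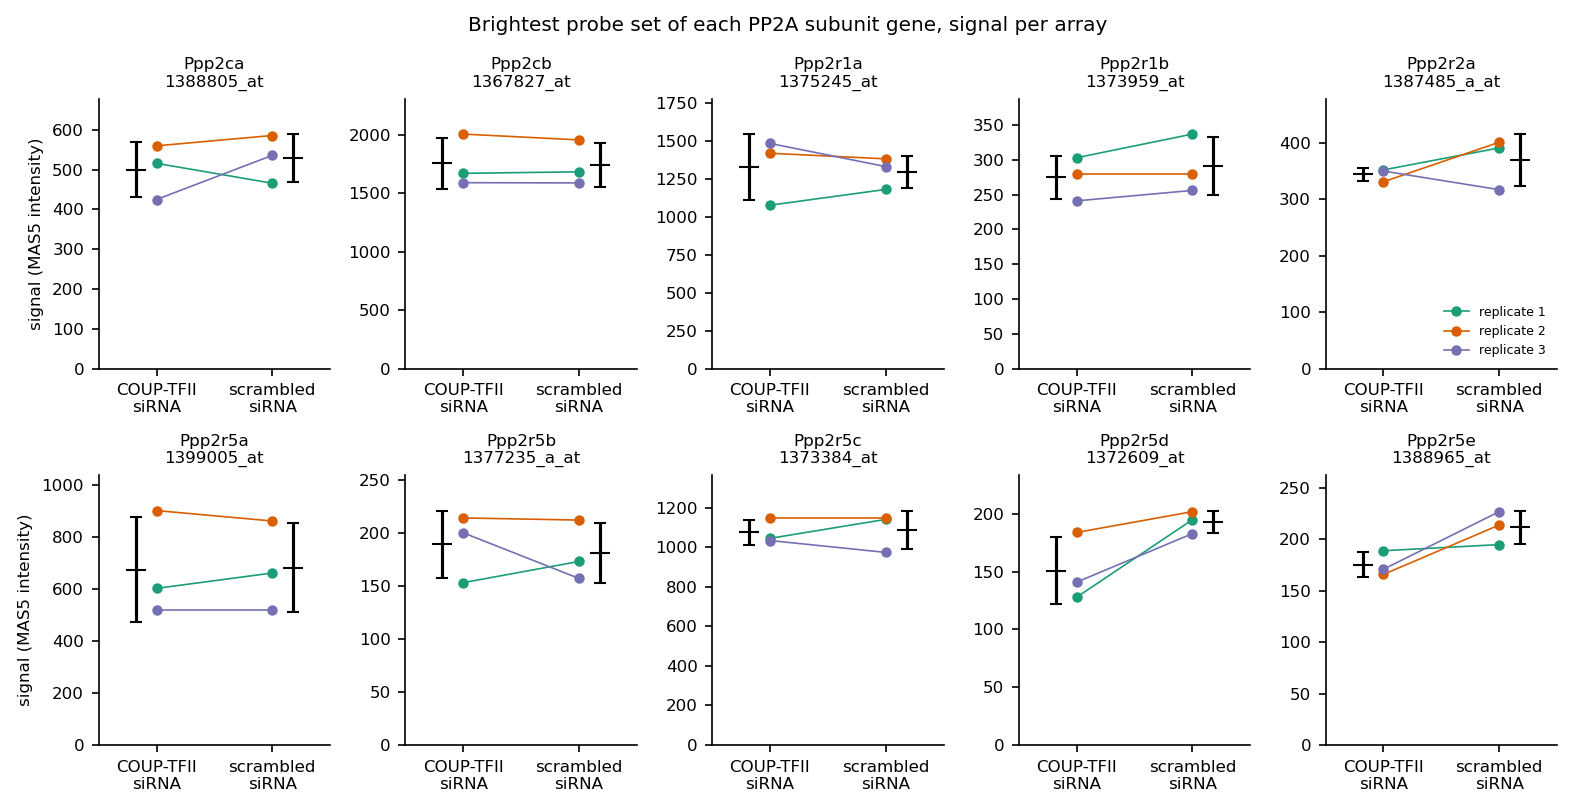
Signal (MAS5 intensity, linear axis starting at 0) of the brightest probe set of each of the 10 PP2A subunit genes on each array, with COUP-TFII siRNA at the left and scrambled siRNA at the right of each panel. Each point is an array, each line a replicate number, and the bars beside the points give the mean ± SD (n = 3). The groups overlap in 9 panels, and in the Ppp2r5e panel all 3 COUP-TFII depleted arrays lie below the control arrays.

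The catalytic subunits carry the phosphatase activity and are near-identical in protein. Ppp2ca, by 1388805_at, read 516, 560 and 425 in COUP-TFII depleted cells and 466, 586 and 536 in control cells. The groups overlapped, with means of 500 ± 69.2 and 529 ± 60.5 (SD, n = 3 each) and a log2 fold change of -0.08 (SE 0.16). Its other probe set, 1380061_at, was dim on all 6 arrays, at 2.67 to 7.1 in COUP-TFII depleted and 1.92 to 4.25 in control cells, and bears on no comparison. Ppp2cb, by 1367827_at, read 1670, 2006 and 1590 in COUP-TFII depleted cells and 1683, 1956 and 1588 in control cells. The same-numbered arrays were closer to each other than to the arrays of their own group. The log2 fold change was 0.01 (SE 0.15 unpaired, 0.08 with the replicate block), with an unpaired 95% interval from -0.34 to 0.35.

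The scaffold subunits hold the catalytic and regulatory subunits together, and Ppp2r1a encodes the major form in most tissues. By 1375245_at it read 1078, 1421 and 1486 in COUP-TFII depleted cells, against 1182, 1384 and 1333 in control cells. The groups overlapped across most of their range and the log2 fold change was 0.02 (SE 0.16). A dimmer probe set of the gene, 1381024_at, read 461, 470 and 589 in COUP-TFII depleted and 472, 385 and 540 in control cells, a log2 fold change of 0.13 (SE 0.17). Ppp2r1b, the minor scaffold gene, read 303, 280 and 241 by 1373959_at in COUP-TFII depleted cells and 337, 280 and 256 in control cells. It was lower in every same-numbered pair, though by almost nothing in pair 2, with means of 274 ± 31.5 and 291 ± 41.4 and a log2 fold change of -0.08 (SE 0.17).

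Ppp2r2a encodes a widely used subunit of the B55 type, the type that in mitotic exit removes phosphates placed by cyclin-dependent kinases. By 1387485_a_at it read 352, 331 and 350 in COUP-TFII depleted cells, against 391, 401 and 317 in control cells. The COUP-TFII depleted arrays lay inside the range of the control arrays, and the log2 fold change was -0.09 (SE 0.15). The other probe set, 1369221_at, was dim, with a log2 fold change of -0.85 (SE 1.17) that rested on 1 array. Control replicate 1 read 19.3 and the other 5 arrays 1 to 2.45, and without that array the value was 0.56.

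The B56 subunits direct PP2A to substrates that carry a short docking motif, among them proteins of the kinetochore and of the β-catenin destruction complex. They supplied 13 of the 21 probe sets. Of these, 5 had a higher and 8 a lower mean in COUP-TFII depleted cells, and the median log2 fold change was -0.02. Ppp2r5a, Ppp2r5b and Ppp2r5c are described first, since their groups overlapped in every probe set.

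Ppp2r5a, by 1399005_at, read 602, 901 and 520 in COUP-TFII depleted cells and 661, 861 and 520 in control cells. Here the replicate number, not the siRNA, marked the arrays: replicate 2 was 1.61 times the mean of replicates 1 and 3 in COUP-TFII depleted cells and 1.46 times in control cells. The log2 fold change between the groups was -0.02 (SE 0.25 unpaired, 0.08 with the replicate block). A second probe set, 1392241_at, was dim at 1.41 to 13.7 in COUP-TFII depleted and 1.8 to 14 in control cells. Ppp2r5b, by 1377235_a_at, read 153, 214 and 200 in COUP-TFII depleted cells, against 173, 212 and 157 in control cells, a log2 fold change of 0.06 (SE 0.20).

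Ppp2r5c had 3 probe sets, and none of them was dim. By the brightest, 1373384_at, it read 1045, 1147 and 1034 in COUP-TFII depleted cells and 1141, 1147 and 974 in control cells, with a log2 fold change of -0.01 (SE 0.13). The 95% interval of that value, -0.31 to 0.29, allowed a change of either sign. Its probe set 1392498_at read 912, 907 and 940 in COUP-TFII depleted and 937, 785 and 938 in control cells, a log2 fold change of 0.06 (SE 0.13). By 1375298_at the values were 348, 393 and 511 in COUP-TFII depleted and 365, 482 and 479 in control cells, a log2 fold change of -0.09 (SE 0.19). The 3 probe sets thus gave small values of both signs.

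**Figure D2:**
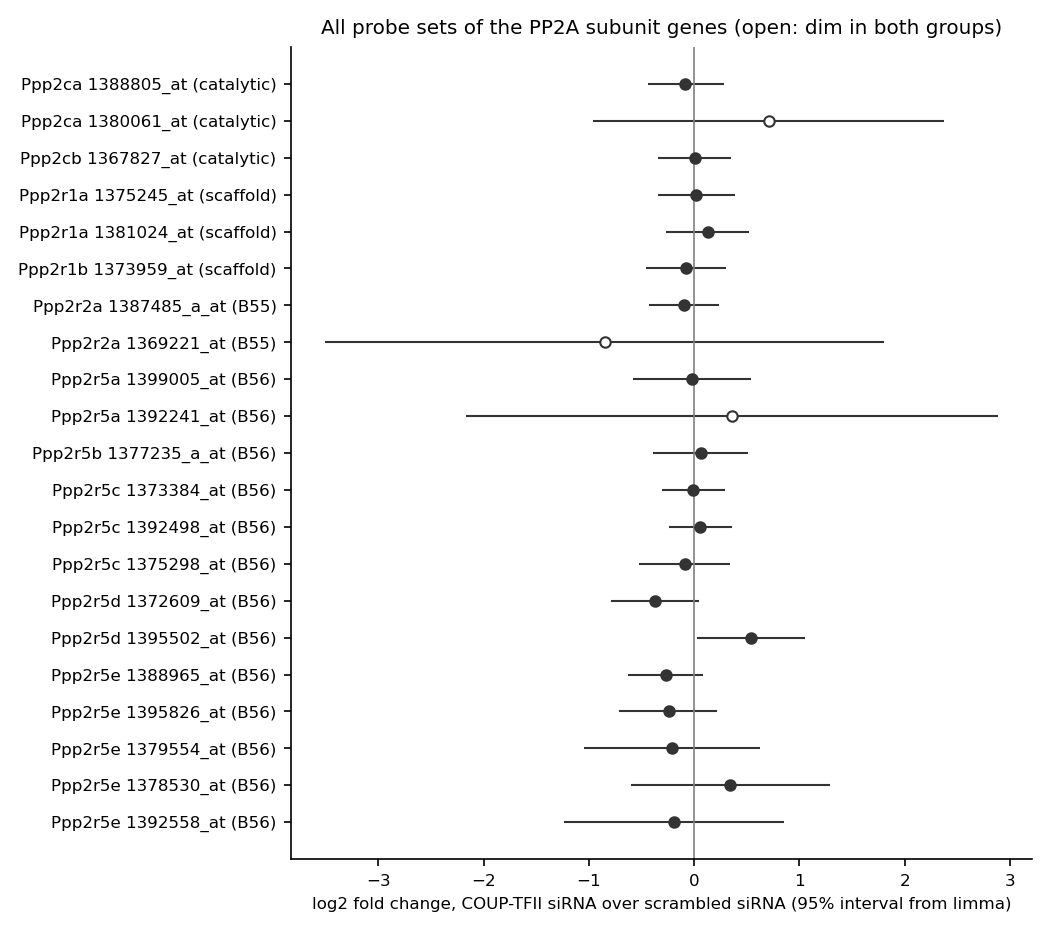
Log2 fold change (COUP-TFII siRNA relative to scrambled siRNA) of all 21 probe sets of the PP2A subunit genes, with bars for the 95% interval from limma (n = 3 arrays each); the vertical line marks 0 and open points are dim in both groups. The interval of 1 probe set, Ppp2r5d 1395502_at, does not reach 0 before adjustment in this unpaired fit (3 probe sets reached an unadjusted p up to 0.05 with the block), and the 3 dim probe sets have the widest intervals.

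The largest differences among the probe sets that were not dim came from Ppp2r5d, and they ran in opposite directions. Ppp2r5d encodes the B56δ subunit, which is known for regulation by cyclic AMP-dependent protein kinase. By the brighter probe set, 1372609_at, it read 128, 184 and 141 in COUP-TFII depleted cells, against 195, 202 and 183 in control cells. By 1395502_at it read 99.1, 124 and 139 in COUP-TFII depleted cells, against 72.2, 97 and 79.6 in control cells.

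On 1372609_at the mean was 151 ± 29.1 in COUP-TFII depleted and 193 ± 9.7 in control cells (SD, n = 3 each), a difference of -22.6%. The groups touched, since COUP-TFII depleted replicate 2 at 184 lay just above control replicate 3 at 183. The log2 fold change was -0.37 (SE 0.18, 95% interval -0.79 to 0.05), and within the same-numbered pairs it was -0.60, -0.13 and -0.37. The limma adjusted p was 1. With the block the SE was 0.13 and the probe set came under the unadjusted threshold, at an adjusted p of 0.777. An exact permutation test of 3 against 3 arrays cannot go below p = 0.1 and was not used for calls.

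On 1395502_at the mean was 121 ± 20.2 in COUP-TFII depleted and 82.9 ± 12.7 in control cells (SD, n = 3 each), a difference of 45.3%. The groups did not overlap, since the lowest COUP-TFII depleted array read 99.1 and the highest control array 97. The log2 fold change was 0.54 (SE 0.22, 95% interval 0.03 to 1.05), and within the pairs it was 0.46, 0.36 and 0.80. The limma adjusted p was 1. With the block the SE was 0.16 and the adjusted p 0.759, the lowest of any PP2A probe set. With 1 array left out the log2 fold change stayed between 0.43 and 0.67, but the unadjusted p passed 0.05 without COUP-TFII depleted replicate 2 or 3 or control replicate 1 or 3.

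Both probe sets are annotated to Ppp2r5d alone, and which transcripts or exons each one reads is not given in the sources used here. Their ratio within an array, 1395502_at over 1372609_at, removes any factor that scales a whole array. It was 0.771, 0.675 and 0.987 in COUP-TFII depleted cells, against 0.37, 0.481 and 0.436 in control cells. On the log2 scale the ratio averaged -0.32 ± 0.28 in COUP-TFII depleted and -1.23 ± 0.19 in control cells (SD, n = 3 each), a difference of 0.91. With 1 array left out the difference was 0.76 to 1.03. This measure was chosen after the values of both probe sets were seen, so it is a description and has no test. It shows that the probe sets differed unequally between the groups, and not which of them follows the total level of Ppp2r5d messenger RNA.

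**Figure D3:**
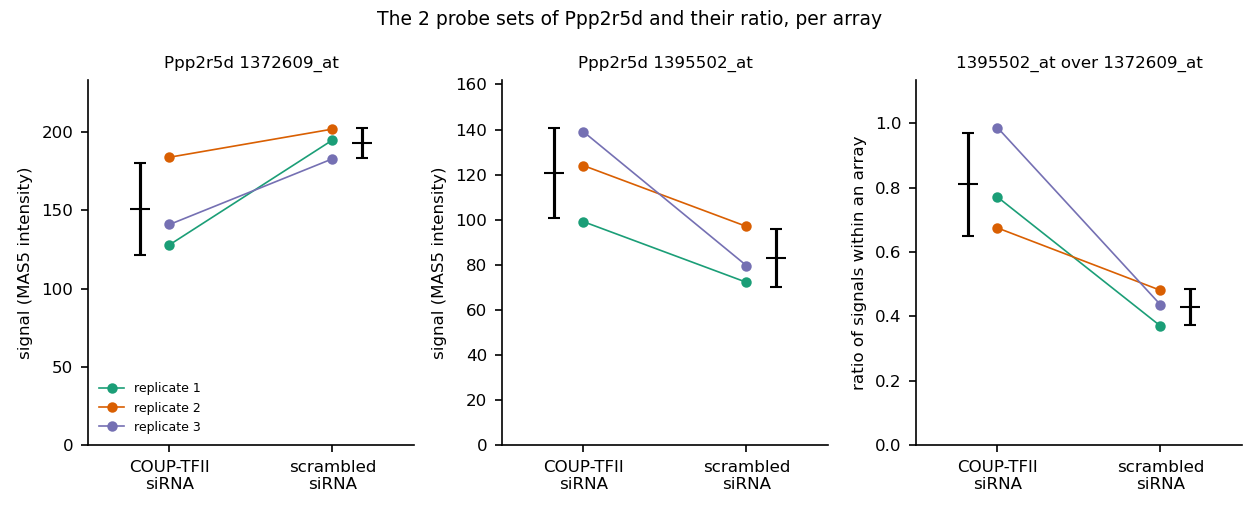
Signal (MAS5 intensity, linear axes from 0) of both Ppp2r5d probe sets on each array, and the ratio of 1395502_at over 1372609_at within an array, with COUP-TFII siRNA left of scrambled siRNA. Each line is a replicate number, and bars give the mean ± SD (n = 3); 1372609_at was lower and 1395502_at higher in COUP-TFII depleted cells in all 3 pairs, and the ratio was 0.675 to 0.987 against 0.37 to 0.481.

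Ppp2r5e encodes the B56ε subunit and was read by 5 probe sets. By the brightest, 1388965_at, it read 189, 166 and 171 in COUP-TFII depleted cells, against 195, 214 and 227 in control cells. The groups did not overlap, though COUP-TFII depleted replicate 1 at 189 came within a few units of control replicate 1 at 195. The mean was 175 ± 12.3 in COUP-TFII depleted and 212 ± 16 in control cells (SD, n = 3 each), a difference of -17.3%. The log2 fold change was -0.27 (SE 0.15, 95% interval -0.63 to 0.08), and within the pairs it was -0.05, -0.37 and -0.41. The limma adjusted p was 1. With the block the SE was 0.12 and the probe set came under the unadjusted threshold, at an adjusted p of 0.797.

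The 4 dimmer probe sets of Ppp2r5e did not all share that sign. On 1395826_at the signal was 90.7, 81.5 and 108 in COUP-TFII depleted and 104, 105 and 120 in control cells, lower in every pair, with a log2 fold change of -0.24 (SE 0.20). On 1379554_at it was 35.5, 28.2 and 29.3 in COUP-TFII depleted and 44.4, 27.3 and 37.4 in control cells, a log2 fold change of -0.21 (SE 0.37). Only 1378530_at had a higher mean in COUP-TFII depleted cells, at 30.1, 25.5 and 28.5 against 24.6, 16.8 and 26 in control cells, higher in every pair with a log2 fold change of 0.34 (SE 0.41). The dimmest, 1392558_at, read 16.1, 23.4 and 23.6 in COUP-TFII depleted and 21.5, 19 and 32.6 in control cells, a log2 fold change of -0.19 (SE 0.46). The last pair of probe sets lay close to the Bacillus level of 20.7 and had the widest errors of the 5.

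**Figure D4:**
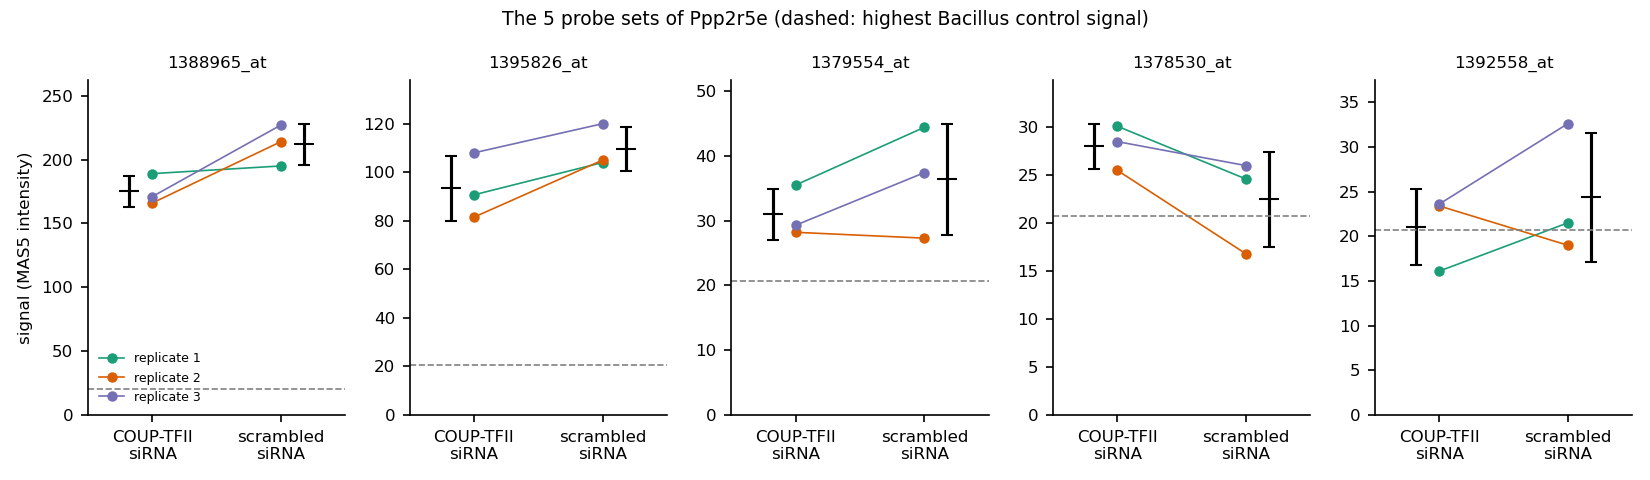
Signal (MAS5 intensity, linear axes from 0, a scale of its own in each panel) of the 5 Ppp2r5e probe sets on each array, with COUP-TFII siRNA left of scrambled siRNA, a line for each replicate number and bars for the mean ± SD (n = 3). Dashes mark the top Bacillus signal, 20.7: 4 probe sets have a lower and 1378530_at a higher mean in COUP-TFII depleted cells.

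Across the 10 genes, groups that did not overlap were found for 2 of the 21 probe sets (9.52%), 1395502_at of Ppp2r5d and 1388965_at of Ppp2r5e, against 6.69% of all probe sets. Higher in all 3 same-numbered pairs were 2 of 21 (9.52%), against 13.4% of all. Lower in all 3 pairs were 4 of 21 (19%), against 14.0% of all, and these came from Ppp2r1b, Ppp2r5d and Ppp2r5e. The study itself listed 1 probe set each of Ppp2r5d and Ppp2r5e among changed genes of Wnt and insulin signaling, chosen on these same arrays. Their separation here is therefore not independent evidence of a change.

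The sequence just before the start of each gene is given for Ppp2r5d and Ppp2r5e, because their probe sets had the lowest p of the PP2A genes. Both are from RefSeq on the build GRCr8 and run 5′ to 3′ on the gene's own strand for 250 bases, Ppp2r5d at chr9:21773503-21773752 on the plus strand and Ppp2r5e at chr6:100053574-100053823 on the minus strand. Capitals mark matches on either strand to the GC box GGGCGG, a motif bound by Sp1-type factors, of which there are 2 before Ppp2r5d and 3 before Ppp2r5e.
Ppp2r5d: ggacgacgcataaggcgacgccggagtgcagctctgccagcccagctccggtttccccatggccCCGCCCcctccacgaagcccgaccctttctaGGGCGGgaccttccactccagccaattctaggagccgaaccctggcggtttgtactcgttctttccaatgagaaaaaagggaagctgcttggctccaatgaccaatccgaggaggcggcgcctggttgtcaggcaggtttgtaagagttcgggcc
Ppp2r5e: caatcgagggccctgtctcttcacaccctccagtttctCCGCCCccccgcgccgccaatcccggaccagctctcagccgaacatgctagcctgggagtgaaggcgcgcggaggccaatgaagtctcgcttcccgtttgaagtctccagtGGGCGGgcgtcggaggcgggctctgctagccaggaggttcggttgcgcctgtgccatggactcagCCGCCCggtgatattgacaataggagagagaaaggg

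Promoter windows of 300 bases, from 250 before to 50 after the start, were found for 8 of the 10 genes, all but Ppp2cb and Ppp2r2a. On both strands GGGCGG was present in 7 of the 8, all except Ppp2r5c, and in 33.1% of all 33469 rat promoter windows. The 8 windows were rich in CpG, with a median of 26 CpG against 7 over all windows and a median GC content of 64.5% against 51.7%. The hexamer AGGTCA, the repeat unit of the element that COUP-TFII binds, was in 0 of the 8 windows and in 16.2% of all. The cyclic AMP response element TGACGTCA was in 1 of the 8, that of Ppp2ca, and in 1.83% of all. These counts describe letters in short windows and say nothing about binding.

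The signal pattern most like that of Ppp2r5d 1395502_at over the 6 arrays was sought among the 12190 probe sets with 1 symbol whose mean signal was not under the median. The 3 closest were Cox15 by 1375922_at (Pearson r = 0.978), Man2c1 by 1387920_at (0.974) and Nthl1 by 1393963_at (0.967). In all, 53 of the 12190 had r above 0.9. The points are 6 arrays in 2 groups, and the likeness is a description.

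The genes that work with PP2A were taken in 7 lists of 77 genes, of which 65 were measured and named by their brightest probe set. Over these 65 the median log2 fold change was -0.01, with means in COUP-TFII depleted cells above those of control cells for 30 and below for 35. None passed after adjustment with limma. At an unadjusted p up to 0.05 limma held 1 of 65 (1.54%), Cttnbp2nl, against 2.31% of all probe sets. With the block it held 6 (9.23%), adding Ppp2r2b, Strn4, Anp32a, Ppp6r1 and Apc, against 6.23% of all. Only 2 of the 65 were dim, and of all 19389 probe sets that were not dim limma held 249, and 1426 with the block. Nothing is read from these shares about the partners as a group.

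Of the other B-type subunits 9 of 10 were measured, 4 higher and 5 lower, with a median log2 fold change of -0.01. Strn4, a striatin that carries PP2A into the STRIPAK complex with kinases, averaged 407 ± 30.3 in COUP-TFII depleted and 521 ± 115 in control cells (SD, n = 3 each). Control replicate 1 stood highest at 646, and the log2 fold change was -0.34 (SE 0.18). Ppp2r2b, a B55-type subunit best known from brain, averaged 118 ± 18.6 in COUP-TFII depleted and 88.2 ± 18.3 in control cells, a log2 fold change of 0.43 (SE 0.24) that was higher in every pair. The striatin Strn had a log2 fold change of -0.19 by its brightest probe set. By the dimmer 1376235_at and 1369721_at it was -0.09 (SE 0.26) and -1.42 (SE 0.86). The latter was lower in every pair, but 2 of its arrays read at or below the Bacillus level.

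The STRIPAK partners of the striatins numbered 11 of 13, with 6 higher, 5 lower and a median log2 fold change of 0.01. Cttnbp2nl, a STRIPAK component, read 115, 90.1 and 95.9 in COUP-TFII depleted cells, against 163, 129 and 130 in control cells. The groups did not overlap, the log2 fold change was -0.48 (SE 0.20), and the limma adjusted p was 1. Stk25, a kinase of the complex, had groups that did not overlap the other way, with a mean of 80.9 ± 9.91 in COUP-TFII depleted and 65.9 ± 5.6 in control cells and a log2 fold change of 0.29 (SE 0.23). For Slmap, a membrane anchor of STRIPAK, the log2 fold change was -0.16.

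All 5 genes of PP2A biogenesis were measured, 2 higher and 3 lower, with a median log2 fold change of -0.02. Lcmt1, which methylates the catalytic subunit, had a log2 fold change of 0.18 and Tiprl, which binds free catalytic subunits, of -0.27. Ptpa, the activator that folds the catalytic site, had 0.08 by its brightest probe set and -0.18 by the dimmer 1395409_at. Among the inhibitors 7 of 10 were measured, 5 higher and 2 lower, with a median of 0.10. Pabir2 averaged 74.3 ± 8.51 in COUP-TFII depleted and 58.5 ± 7.94 in control cells with groups that did not overlap, a log2 fold change of 0.35 (SE 0.25). Anp32a, an acidic nuclear protein that inhibits PP2A, was higher in every pair, at 559 ± 86.4 in COUP-TFII depleted and 473 ± 87.5 in control cells. Pabir1, which inhibits B55-type PP2A in human cells, had a log2 fold change of -0.20.

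The list of the related phosphatases PP4 and PP6 also held Ppp5c, the gene of PP5. Of the 11 listed genes 10 were measured, 2 higher and 8 lower, with a median log2 fold change of -0.05. By the brightest probe set the 2 higher genes were Ppp4c and Ppp5c, the latter with a log2 fold change of 0.11. Ppp6r1, a regulatory subunit of PP6, had a log2 fold change of -0.25 by its brightest probe set. Its dimmer probe set 1385758_at read 218, 234 and 230 in COUP-TFII depleted cells, against 300, 318 and 286 in control cells. Those groups did not overlap, and the log2 fold change was -0.40 (SE 0.14). This probe set had an unadjusted limma p of 0.0172 but did not pass after adjustment, at 0.678 in the block fit. It is not in the counts above, which rest on the brightest probe set of each gene. By that rule Ppp4r2 was counted as lower, at a log2 fold change of -0.0067. Its dimmer probe sets 1392997_at and 1393231_at were higher in every pair, at 0.44 (SE 0.25) and 0.20 (SE 0.31). With the block 1392997_at had an unadjusted limma p of 0.00552 and an adjusted p of 0.72. Ppp6r3 had a log2 fold change of -0.18 and Ppp4c, the PP4 catalytic subunit, of 0.12.

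Among targets of PP2A in Wnt, insulin and growth signaling 14 of 18 genes were measured, 4 higher and 10 lower, with a median log2 fold change of -0.04. Ctnnb1, which encodes β-catenin, averaged 4701 ± 542 in COUP-TFII depleted and 4025 ± 1046 in control cells (SD, n = 3 each), with a log2 fold change of 0.25 (SE 0.22). Its control replicate 2 stood apart at 2830, and the value was 0.02 without that array. By the dimmer 1373470_at and 1369733_at the log2 fold change was 0.16 (SE 0.16) and -0.006 (SE 0.16), and 1375284_at was dim. The paper reports otherwise from RT-qPCR on these cells. There β-catenin messenger RNA fell significantly with the depletion and rose when COUP-TFII was overexpressed. Apc, the scaffold of the destruction complex, was lower in every pair, at 258 ± 38.6 in COUP-TFII depleted and 307 ± 70.3 in control cells. Its dimmer probe set 1387837_at went the other way, at 71.3 ± 16.6 in COUP-TFII depleted and 58.7 ± 23.6 in control cells, higher in 2 of 3 pairs. Map2k1, a kinase of the growth factor cascade, had a log2 fold change of -0.19. The partners of B56 at kinetochores and on chromosomes numbered 9 of 10, 7 higher and 2 lower, with a median of 0.07. Bub1b, whose protein binds B56 at kinetochores, had a log2 fold change of 0.16, Cdca5, which guards cohesion of sister chromatids, of 0.21, and Espl1, the separase, of -0.12.

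**Figure D5:**
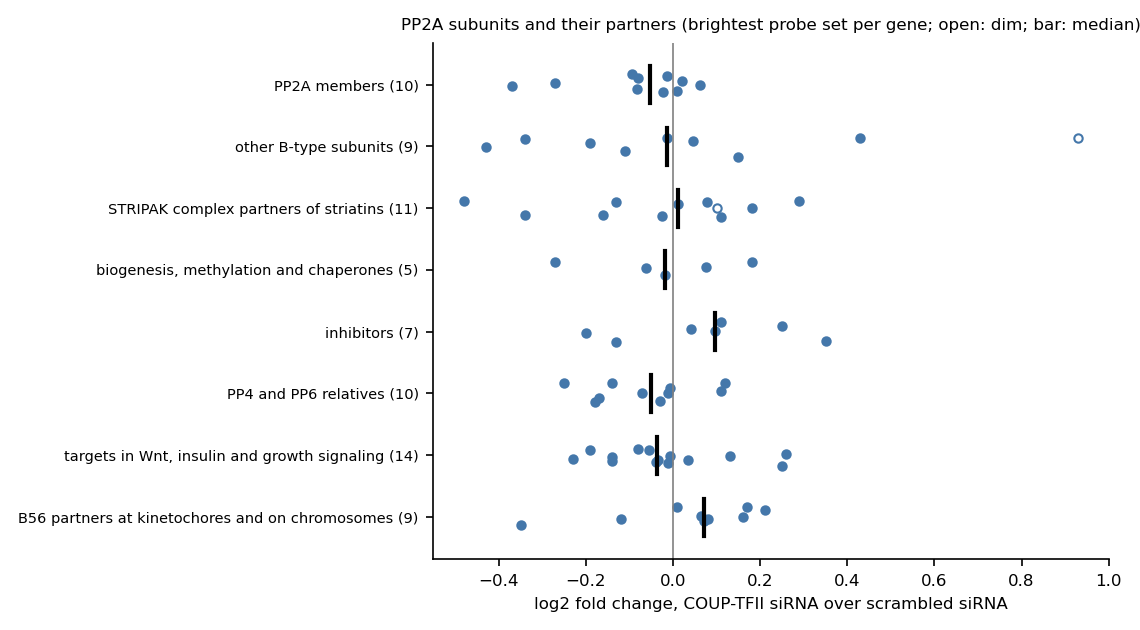
Log2 fold change (COUP-TFII siRNA relative to scrambled siRNA) of the brightest probe set of each gene in the PP2A subunits and 7 lists of genes that work with PP2A; points are genes, open points are dim in both groups, the black bar is the median of a list and the number measured stands in parentheses. The medians lie between -0.05 and 0.10, and 0 genes passed after adjustment.

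The lists were chosen for this purpose with earlier results of these arrays known, and their medians and counts are descriptions beside the median of -0.003 over all probe sets. Arrays read messenger RNA, so protein, methylation of the catalytic subunit and assembly of the complexes were not measured.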

How the data were processed

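RNA of 832/13 INS-1 cells was hybridised to 6 arrays, 3 for each siRNA. The authors background-subtracted the probe signals, normalized them with reference probes and, by the labels, used MAS5, whose version is not given in the sources used here. They deposited 1 linear intensity for each of 31099 probe sets on each array, without detection calls, so precision is limited by the number of arrays. The tests do not include 57 control probe sets.

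Intensities were raised to a floor of 1 where they lay below it and put on the log2 scale, with no further normalization. The lmFit and eBayes functions of limma 3.58.1 (R 4.3.3), with a trend on intensity, compared COUP-TFII depleted with control cells, unpaired and two-sided, with Benjamini-Hochberg adjustment over 31042 probe sets. The fits were run on simulated data with independent errors on each array and larger changes than those of the PP2A probe sets. Those data held no effect shared by a replicate number. The run therefore says nothing about paired arrays or small changes. By the Bacillus scale 37.5% of all were dim in both groups. A single symbol is annotated to 20826 probe sets, more than 1 to 436, and 9780 carry none. Only those with 1 symbol were named.

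Both groups carry the replicate numbers 1, 2 and 3 in the labels. Deviations from the group means correlated at 0.111, 0.231 and 0.163 between arrays of the same number and at -0.146 to -0.0104 between others, so the numbers were taken to pair the arrays, and values with the number as a block are given where they change a count. Whether a replicate was a separate culture is not stated beyond the word biological, so p-values measure the spread between these arrays.

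Values by array are given for the brightest probe set of each PP2A gene and for those with an unadjusted p up to 0.05, with or without the block, or with groups that did not overlap. From each partner list up to 3 genes that were not dim were named by lowest p. The PP2A genes, the lists and the tests were chosen with earlier results of these data known. Alternatives changed the test (the methods' t-test, no trend, the replicate block), the scale (quantile normalization, centring on the median, log2(signal + 16)), the probe sets (dim ones removed, or the median taken over those of a gene) and the arrays (each left out in turn). Python 3.11.15 and matplotlib 3.10.9 drew the figures.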

Additional observations from a re-analysis of the deposited data

How the results depend on the processing

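No PP2A probe set reached an adjusted p under 0.05 with any alternative, and the lowest adjusted p was 0.759, with the replicate block. At an unadjusted p up to 0.05 there was 1 PP2A probe set. There were 2 with the methods' t-test, 3 with the replicate block, 0 without the intensity trend, 0 with median centring and 0 to 1 with an array left out. The count was 0 without COUP-TFII depleted replicate 3, control replicate 1 or control replicate 3. Without COUP-TFII depleted replicate 2 the probe set held was not 1395502_at but the opposed 1372609_at of Ppp2r5d. Its log2 fold change was then -0.52 (unadjusted limma p 0.0232), while 1395502_at had 0.51 (unadjusted limma p 0.0958). Of all probe sets 0 passed after adjustment, against 1 with the t-test and 5 with the replicate block. The partner genes gave 1 of 65 at the unadjusted threshold (1.54%, against 2.31% of all probe sets and 249 of 19389 that were not dim). With the replicate block they gave 6 (9.23%, against 6.23% of all and 1426 of 19389 that were not dim). Their count was 0 without the trend, 0 with median centring and 0 to 2 with an array left out. It was also 0 without both arrays of replicate number 2, an alternative chosen after seeing the data. That count was 0 without COUP-TFII depleted replicate 2 or 3 or control replicate 1, and 2 without control replicate 2. Genes with a higher mean numbered 3, and 6 by the median over probe sets, of which Ppp2ca and Ppp2r5a only through a dim probe set. Without dim probe sets, an alternative chosen after seeing the data, the count was 4, among them Ppp2r5d through the median of 2 opposed probe sets. The median log2 fold change of the PP2A probe sets moved between -0.072 and 0.011.

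Of 306 values of single PP2A probe sets under alternatives, 276 kept their sign and 30 turned it, in 13 probe sets. The other 8, among them both of Ppp2r5d, kept it throughout. Changing the test or removing probe sets leaves the log2 fold change of a probe set as it is. Those alternatives could not turn a sign, and the count of kept signs includes them. Only the changes of scale and of arrays could turn one. Ppp2cb was -0.022 after quantile normalization. Without both arrays of replicate number 2, Ppp2cb was -0.0051, and Ppp2r5c was -0.017 by 1392498_at and 0.012 by 1375298_at. With an array left out the log2 fold changes that turned ran as follows. They were -0.17 to 0.03 for Ppp2ca 1388805_at, -0.091 to 0.095 for Ppp2cb 1367827_at, -0.068 to 0.16 for Ppp2r1a 1375245_at and -0.0037 to 0.24 for Ppp2r1a 1381024_at. Further ranges were -0.17 to 0.029 for Ppp2r1b 1373959_at, -1.58 to 0.56 for Ppp2r2a 1369221_at, -0.25 to 0.16 for Ppp2r5a 1399005_at and -0.30 to 1.38 for Ppp2r5a 1392241_at. Others were -0.035 to 0.20 for Ppp2r5b 1377235_a_at, -0.09 to 0.027 for Ppp2r5c 1373384_at, -0.027 to 0.10 for Ppp2r5c 1392498_at and -0.25 to 0.032 for Ppp2r5c 1375298_at. The last was -0.35 to 0.036 for Ppp2r5e 1392558_at. The cause of these turns was not tested, and all of them lie in values smaller than their errors. The difference in the log2 ratio of the Ppp2r5d probe sets was 0.92 after quantile normalization, 0.80 with log2(signal + 16) and 1.12 without both arrays of replicate number 2.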
